A study of Mus musculus with 4 samples.

Results

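Granulocytes are built by a small set of transcription factors, and 8 genes of that set are described here: the C/EBP family members Cebpa, Cebpb, Cebpd, Cebpe and Cebpg, and the lineage factors Spi1, which encodes PU.1, Gfi1 and Runx1. Every probe set whose annotated gene symbol equalled one of these names was taken, which gave 16 of the 45101 probe sets of the array for 7 of the 8 genes. No probe set was listed under Cebpe, which is not analysed here. The cells were neutrophils isolated with a magnetic bead kit from the bone marrow of C57BL/6 mice aged 8 weeks, either wild type (miR-125a+/+) or knockout (miR-125a-/-), and cultured in medium with serum. Each genotype was examined without LPS (lipopolysaccharide, a bacterial cell wall component sensed through Toll-like receptor 4) and after 3 h with it. For each of these 4 groups RNA of 3 independent experiments was pooled on 1 Affymetrix array, so no group has a replicate, no test was run and no p-value is given. The labels describe the unstimulated cells both as 0 h and as cells without LPS, so it is not settled whether they were held in culture for the same time.

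The C/EBP proteins are basic leucine zipper factors that bind DNA as dimers with each other. C/EBP-alpha drives the step from multipotent progenitor to granulocyte precursor, C/EBP-epsilon the later stages in which secondary granules are filled, and C/EBP-beta the production of granulocytes under emergency demand. C/EBP-delta is known as an inducible factor of the acute-phase response, and C/EBP-gamma lacks a classical activation domain and works through its partners. PU.1 is an ETS factor needed for all myeloid cells, GFI1 is a zinc-finger repressor that favours neutrophils over monocytes, and RUNX1 is the DNA-binding part of core-binding factor, which acts early in blood formation.

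The microRNA deleted in the knockout mice is shown first, since the genotype comparison rests on it. Its sequence and that of its paralogue miR-125b are mature sequences of RefSeq on build GRCm38.p6, with the seed, bases 2 to 8, in capitals. Mature miR-125a-5p lies at chr17:17830817-17830840 on the plus strand and miR-125b-5p, of the Mir125b-1 gene, at chr9:41581940-41581961 on the plus strand. Both carry the same seed.
miR-125a-5p: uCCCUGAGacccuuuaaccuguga
miR-125b-5p: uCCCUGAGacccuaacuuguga

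Upstream sequences were held by the RefSeq promoter table (GRCm38.p6) for 5 of the 7 measured genes, in 7 entries, with Cebpd and Spi1 not among them. They are shown for 3 genes: Cebpb, whose 2 probe sets were both higher on the LPS arrays, Gfi1, whose LPS difference differed most between genotypes among the brightest probe sets, and Runx1, whose probe sets disagreed and which is transcribed from 2 promoters. Each run is the 250 bases before the annotated transcription start, 5′ to 3′ on the gene's strand. The Cebpb stretch is chr2:167688665-167688914 on the plus strand, with CRE half-sites (TGACG or its complement CGTCA) in capitals. Gfi1 is chr5:107725806-107726055 on the minus strand, with the match to the NF-kB consensus in capitals. Runx1 is given at chr16:92826075-92826324 (the distal start) and chr16:92697330-92697579 (the proximal start), both on the minus strand, with the CCAAT box (CCAAT or ATTGG) in capitals.
Cebpb: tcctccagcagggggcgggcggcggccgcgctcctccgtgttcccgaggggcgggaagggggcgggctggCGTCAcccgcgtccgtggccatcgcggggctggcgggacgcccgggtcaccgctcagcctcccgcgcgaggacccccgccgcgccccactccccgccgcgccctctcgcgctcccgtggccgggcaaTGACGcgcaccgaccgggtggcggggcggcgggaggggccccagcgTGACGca
Gfi1: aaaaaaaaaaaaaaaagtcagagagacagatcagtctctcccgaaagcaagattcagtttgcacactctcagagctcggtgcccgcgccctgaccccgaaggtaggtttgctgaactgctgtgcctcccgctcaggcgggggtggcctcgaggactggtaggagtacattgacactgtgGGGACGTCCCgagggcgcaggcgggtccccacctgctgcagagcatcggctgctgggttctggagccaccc
Runx1 distal: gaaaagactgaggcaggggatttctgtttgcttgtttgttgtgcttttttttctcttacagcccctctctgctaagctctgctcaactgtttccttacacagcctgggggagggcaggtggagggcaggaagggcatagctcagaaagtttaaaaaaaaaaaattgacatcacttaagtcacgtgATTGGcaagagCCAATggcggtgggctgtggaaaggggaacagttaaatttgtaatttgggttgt
Runx1 proximal: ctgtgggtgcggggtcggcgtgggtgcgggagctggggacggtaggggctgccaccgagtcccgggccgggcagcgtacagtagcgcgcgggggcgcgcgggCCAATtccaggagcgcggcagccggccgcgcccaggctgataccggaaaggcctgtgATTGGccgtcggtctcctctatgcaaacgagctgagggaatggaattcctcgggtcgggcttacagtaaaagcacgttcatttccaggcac

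The 7 windows were searched for 6 motifs on both strands. The Cebpb window held 3 CRE half-sites, which begin 180, 53 and 7 bases before the start. Of 32851 promoter windows of the same length, 17.8% held at least 1 such half-site and 0.688% at least 3. The NF-kB consensus was matched in 7.25% of all windows and, among the 7 windows of these genes, in 1, that of Gfi1, beginning 71 bases before its start. The CCAAT box was in 33.8% of all windows and in 3 of the 7, those of Cebpg and both starts of Runx1, with 2 matches in each. The C/EBP motif TTNNGNAA (complement TTNCNNAA) was in 36.8% of windows and 1 of the 7 (Gfi1), the PU-box core GAGGAA in 23.3% and 1 of the 7 (the proximal start of Runx1), and the RUNX motif TGTGGT in 14.0% and 0 of the 7. No 2 matches overlapped. A match is a description of letters and not a site.

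Values are log2 signals, deposited by the authors after MAS5, which works on each array alone and merges the readings of a probe set into 1 background-corrected value. A floor was placed at the 60th percentile of all probe sets on the 4 arrays, a log2 signal of 6.80, because dim probe sets scatter widely. A difference is called when it reaches 2-fold (log2 1), and where 1 side lies at the floor it is a lower bound. Precision is limited by the number of arrays. As a measure of the spread within arrays, the 2 brightest probe sets of a gene were compared for 3479 genes: their LPS differences in wild-type cells were a median of 0.27 apart on the log2 scale, and 1 gene in 10 had a gap above 0.96. For genotype differences in unstimulated cells the median gap was 0.18 and the 90th percentile 0.54. All 8 matched mature neutrophil markers of 11 were above the floor on all arrays, S100a8 and S100a9, which encode calprotectin, at log2 signals of 15.42 to 16.20. After LPS 1 of the 8 was called lower in wild-type cells (the decoy receptor Il1r2, -2.95) and 2 in knockout cells (Il1r2, -3.05, and the chemokine receptor Cxcr2, -1.11, with -0.62 in wild type), and 0 were called higher. Of all measured genes, 17.0% in wild-type and 14.6% in knockout cells were called in either direction. miR-125a itself was not measured here, so the genotype labels were not checked against it. Fewer cells of a type and less RNA per cell cannot be told apart in these pooled samples.

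Of the 16 probe sets, 12 lay above the floor on all 4 arrays, 3 on 1 to 3 arrays and 1 on no array. Every one of the 7 genes had at least 1 of the 12. Where 1 value per gene is needed, the probe set with the highest mean is used, and the others are given beside it. Signals of different probe sets cannot be ranked against each other, so the order of these genes in abundance is not given.

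**Figure D1:**
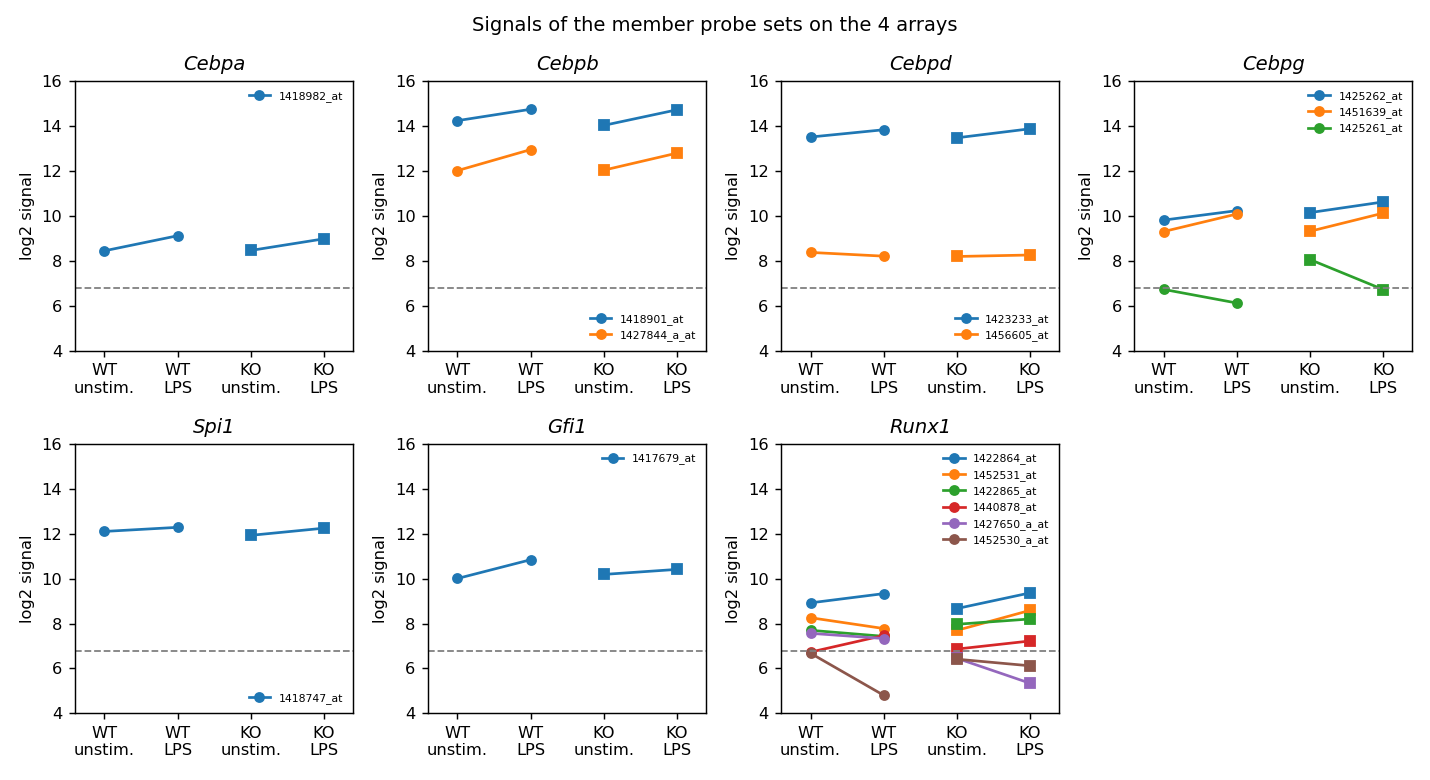
Log2 signal of each member probe set (coloured lines) on the arrays of wild-type (WT, circles) and knockout (KO, squares) neutrophils, unstimulated and after 3 h of LPS, 1 array per point; the dashed line is the floor of 6.80. The brightest set of every gene lies above the floor on all 4 arrays, and the wide excursions are those of dim Cebpg and Runx1 sets.

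After 3 h of LPS, none of the 7 genes differed 2-fold from unstimulated cells in either genotype, while all 7 had differences above 0 on the deposited scale. In wild-type cells 0 of 7 were called, against 17.0% of the 9507 genes measured there, and in knockout cells 0 of 7, against 14.6% of 9578. The members' differences ran from 0.18 to 0.84 in wild-type cells (median 0.42) and from 0.22 to 0.70 in knockout cells (median 0.47). The median over all measured genes was -0.03 and -0.05.

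Cebpa, the factor of early granulocyte commitment, had log2 signals of 8.44 in unstimulated wild-type cells, 9.12 in wild-type cells after LPS, 8.46 in unstimulated knockout cells and 8.98 in knockout cells after LPS. Both LPS arrays were above both unstimulated arrays, by 0.67 in wild type (1.59-fold) and 0.52 in knockout (1.43-fold). It has a single probe set, so no second reading of the transcript was available within an array.

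Cebpb, the factor of emergency granulopoiesis, had 2 probe sets, and both were higher on the LPS arrays. The brighter, 1418901_at, stood at 14.24 and 14.74 in wild-type cells without and with LPS and at 14.03 and 14.72 in knockout cells. The other, 1427844_a_at, stood at 12.01 and 12.95 in wild type and at 12.03 and 12.79 in knockout. Their LPS differences were 0.51 and 0.93 in wild-type cells and 0.69 and 0.76 in knockout cells, so the sets lay further apart in wild type than in knockout. The larger of these, 0.93, is a 1.91-fold difference and the nearest to 2-fold of any member probe set above the floor on all arrays. With the arrays scaled to a common median it was 1.18 and reached 2-fold.

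Cebpd, the acute-phase member of the family, gave differing readings from its 2 probe sets. The brighter, 1423233_at, stood at 13.51 and 13.83 in wild-type cells without and with LPS and at 13.47 and 13.88 in knockout cells, differences of 0.32 and 0.40. The dimmer, 1456605_at, stood at 8.37, 8.21, 8.19 and 8.26 in the same order, differences of -0.17 and 0.07. All 4 arrays therefore lay within 0.40 of each other in the first set and within 0.18 in the second, and no array stood apart in either.

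Cebpg, the family member that acts through its partners, had 3 probe sets, of which 2 were higher on both LPS arrays. The set 1425262_at stood at 9.81 and 10.23 in wild-type cells without and with LPS and at 10.15 and 10.62 in knockout cells. The set 1451639_at stood at 9.30 and 10.08 in wild type and at 9.31 and 10.12 in knockout. LPS differences were 0.42 and 0.78 in wild-type cells and 0.47 and 0.81 in knockout cells, so each set gave nearly the same difference in both genotypes. With a common median 1451639_at reached 2-fold in wild-type cells (1.03). The third, 1425261_at, stood at 6.73 and 6.12 in wild type and at 8.06 and 6.72 in knockout, above the floor only on the unstimulated knockout array. It passed the floor only through that array, and its difference there, at least 2.39-fold lower after LPS in knockout cells, was the only LPS call among the 14 member probe sets measured in that genotype.

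Among the lineage factors, Spi1 had the smallest LPS difference of the 7 genes in wild-type cells when each gene was read from its brightest set. Its single probe set stood at 12.10 and 12.28 in wild-type cells without and with LPS and at 11.92 and 12.24 in knockout cells, differences of 0.18 (1.13-fold) and 0.32 (1.25-fold). The 4 arrays spanned 0.36 in all, and 35.8% of measured genes had a higher difference in wild-type cells than Spi1.

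Gfi1, the repressor that favours neutrophils, had the largest LPS difference of the 7 in wild-type cells and the smallest in knockout cells on the deposited scale. Under quantile normalization Cebpa (0.893) stood just above Gfi1 (0.887) in wild type, and Cebpd (0.21) and Spi1 (0.24) lay below Gfi1 (0.28) in knockout. In the mean over probe sets Cebpg (-0.02) was the smallest in knockout. Its single probe set stood at 10.00 without and 10.84 with LPS in wild type, and at 10.18 and 10.41 in knockout. The wild-type LPS array was thus the high one, 0.84 above its unstimulated partner (1.78-fold), against 0.22 in knockout (1.17-fold). In wild-type cells 9.36% of measured genes had a higher difference than Gfi1, and in knockout cells 30.7%. With the arrays scaled to a common median, the wild-type difference was 1.08 and reached 2-fold.

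Runx1, the core-binding factor subunit, had 6 probe sets that did not give 1 picture. The brightest, 1422864_at, stood at 8.92 and 9.33 in wild-type cells without and with LPS and at 8.67 and 9.36 in knockout cells, differences of 0.41 and 0.70. The next, 1452531_at, stood at 8.26 and 7.78 in wild type and at 7.69 and 8.59 in knockout, differences of -0.48 and 0.89. The third, 1422865_at, stood at 7.70 and 7.43 in wild type and at 7.97 and 8.20 in knockout, differences of -0.27 and 0.24. In all 3 sets the difference was above 0 in knockout cells, and in wild-type cells only the brightest was.

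The remaining Runx1 sets lay close to the floor or under it. The set 1440878_at stood at 6.73 and 7.47 in wild type and at 6.86 and 7.22 in knockout, 1427650_a_at at 7.56 and 7.33 in wild type and at 6.45 and 5.34 in knockout, and 1452530_a_at between 4.81 and 6.68 on all arrays. Which transcripts of the 2 Runx1 promoters each set detects was not examined here. The mean over all 6 sets, dim ones included, gave an LPS difference of -0.28 in wild-type and 0.13 in knockout cells, so in wild-type cells the direction for this gene depends on the probe sets used.

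**Figure D2:**
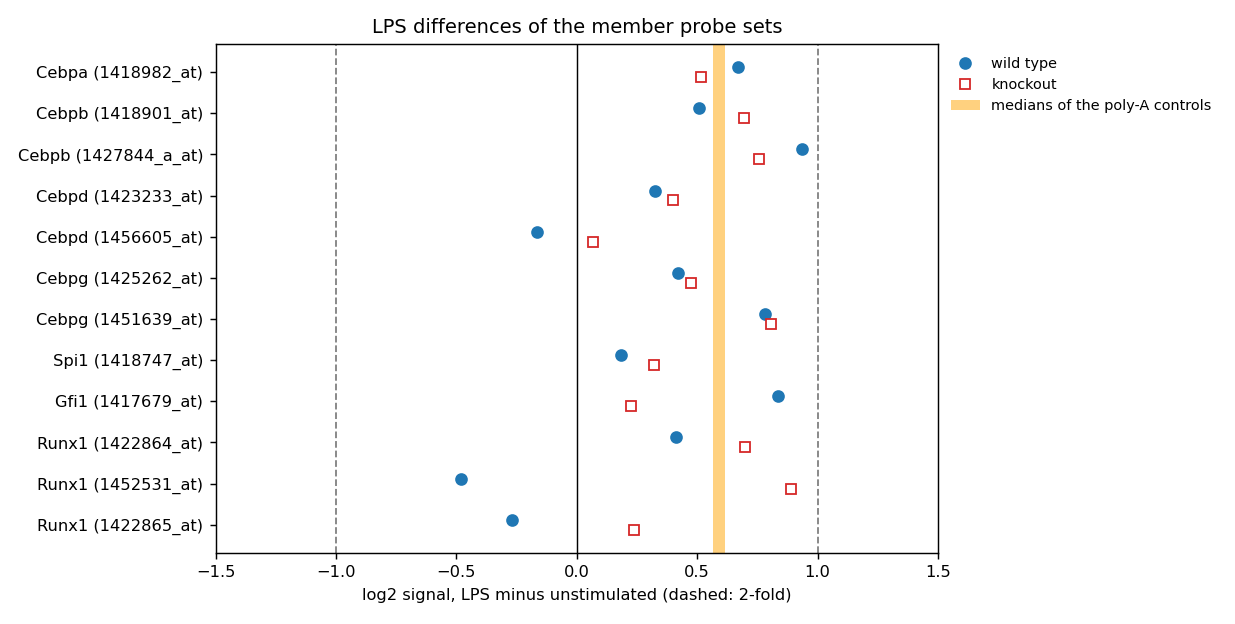
LPS minus unstimulated log2 signal (horizontal axis) of the 12 member probe sets above the floor on all 4 arrays, for wild-type (filled circles) and knockout (open squares) cells, with 2-fold as dashed lines and the medians of the poly-A control probe sets (0.57 and 0.62) as a band. No point passes 2-fold, and the points below 0 are wild-type values of Cebpd 1456605_at and Runx1 1452531_at and 1422865_at.

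Over the 12 probe sets above the floor throughout, 9 had LPS differences above 0 in wild-type cells and 3 below, and all 12 were above 0 in knockout cells. The medians were 0.42 and 0.50. Among all measured genes 47.8% had a difference above 0 in wild-type and 46.4% in knockout cells.

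These directions depend on how the arrays are put on 1 scale. The 22 probe sets for poly-A spike-in controls above the floor were themselves higher on the LPS arrays, by a median of 0.57 in wild type (from 0.22 to 0.93) and 0.62 in knockout (from 0.18 to 0.92). In the same order, the 18 hybridisation control sets were higher by medians of 0.30 and 0.23, and the 3 sets for 18S rRNA by 0.75 and 0.86. Scaled on the poly-A controls, the median of all measured genes moved by -0.52 in wild-type and -0.56 in knockout cells. On that scale 2 of 7 members were above 0 and 5 below in each genotype. Gfi1 (0.26) and Cebpa (0.10) were the 2 above 0 in wild type, and Runx1 (0.09) and Cebpb (0.09) in knockout. Scaled to a common median, the median of all genes moved by 0.23 in wild-type cells and 0.10 in knockout cells, and 7 of 7 members were above 0 in both. All 7 lay above the median of all measured genes in each genotype on the deposited scale and under quantile normalization. Median and poly-A scaling move each array by 1 constant. They shift members and gene median together and, floor effects aside, could not change this. In the mean over probe sets 6 of 7 lay above the gene median in wild-type cells and 7 in knockout cells.

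**Figure D3:**
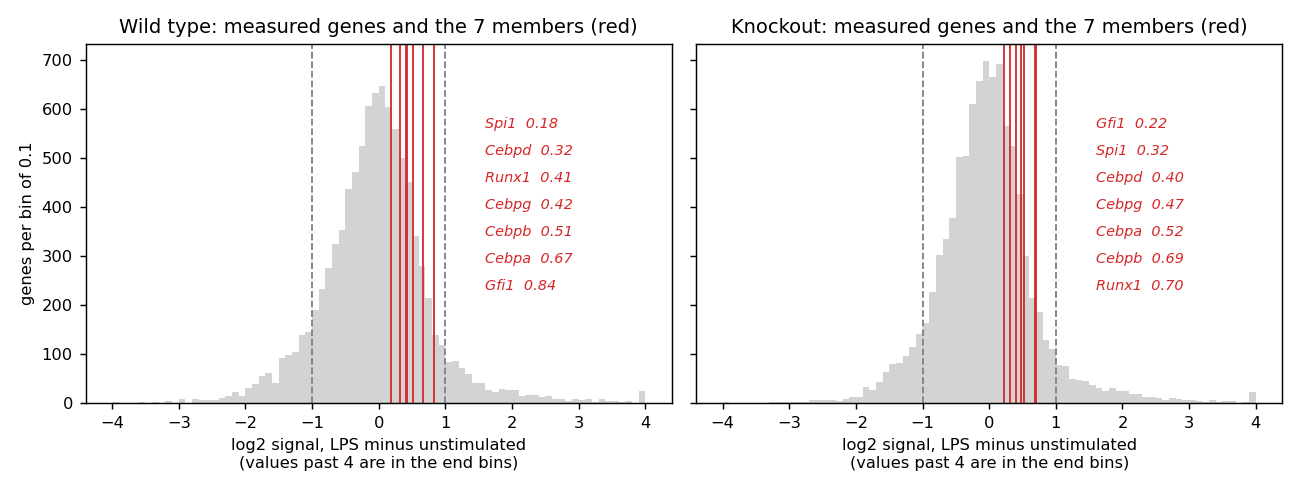
Histograms of LPS minus unstimulated log2 signal for 9507 genes measured in wild-type (left) and 9578 in knockout cells (right), with the 7 members as red lines and 2-fold as dashed lines. The members sit to the right of the peak and inside the 2-fold lines, Gfi1 at 0.84 being outermost in wild type and Runx1 at 0.70 in knockout.

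Loss of miR-125a was compared next, at each time. Of the 7 genes, 0 were called in unstimulated cells, against 1.01% of 9401 measured genes, and 0 after LPS, against 1.24% of 9262. The knockout minus wild-type differences of the brightest sets ran from -0.25 to 0.33 unstimulated (median -0.04) and from -0.43 to 0.39 after LPS (median -0.02). The middle 95% of all measured genes ran from -0.62 to 0.62 unstimulated and from -0.65 to 0.70 after LPS, and all 7 members lay inside both ranges. The signs depend on the scaling: after LPS 3 members were above 0 and 4 below as deposited, 2 and 5 under quantile normalization, 1 and 6 with a common median, and 5 and 2 on the poly-A scale. The unstimulated arrays enter both the LPS and the genotype comparisons, so these values are not independent of those above.

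Cebpg was the member with the highest genotype difference at both times in its brightest set. Its set 1425262_at was higher in knockout cells by 0.33 unstimulated (1.26-fold) and 0.39 after LPS (1.31-fold), values exceeded by 10.7% and 10.6% of measured genes. The second set, 1451639_at, gave 0.01 and 0.04, so the 2 sets did not give the same reading. The dim set 1425261_at was at least 2.39-fold higher in unstimulated knockout cells, the only genotype call among the 15 member probe sets measured there, with the wild-type array just under the floor at 6.73.

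The other C/EBP genes had small genotype differences. Cebpa had 0.02 unstimulated and -0.14 after LPS. The 2 sets of Cebpb had -0.21 and 0.02 unstimulated and -0.02 and -0.16 after LPS, and those of Cebpd -0.04 and -0.18 unstimulated and 0.04 and 0.05 after LPS. Each of these is smaller than the 90th percentile gap between 2 sets of a gene, 0.54 unstimulated and 0.60 after LPS. Unstimulated, the brighter Cebpb set (-0.21) was past the median gap of 0.18, and the dimmer Cebpd set (-0.18) about equal to it. The gap is a spread within arrays and does not measure how far 2 arrays of 1 group would differ.

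Among the lineage factors, Spi1 stood at -0.17 unstimulated and -0.04 after LPS. Gfi1 had 0.18 unstimulated and -0.43 after LPS (1.35-fold lower in knockout cells), and 7.30% of measured genes had a lower difference after LPS. The brightest Runx1 set had -0.25 and 0.03, while 1452531_at had -0.56 and 0.81 and 1422865_at 0.27 and 0.77. The 3 Runx1 sets therefore differed in direction unstimulated and were all above 0 after LPS, by between 0.03 and 0.81. The dimmer 1427650_a_at was lower in knockout cells at both times, with bounds of -0.77 and -0.53, since its knockout values lay under the floor.

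**Figure D4:**
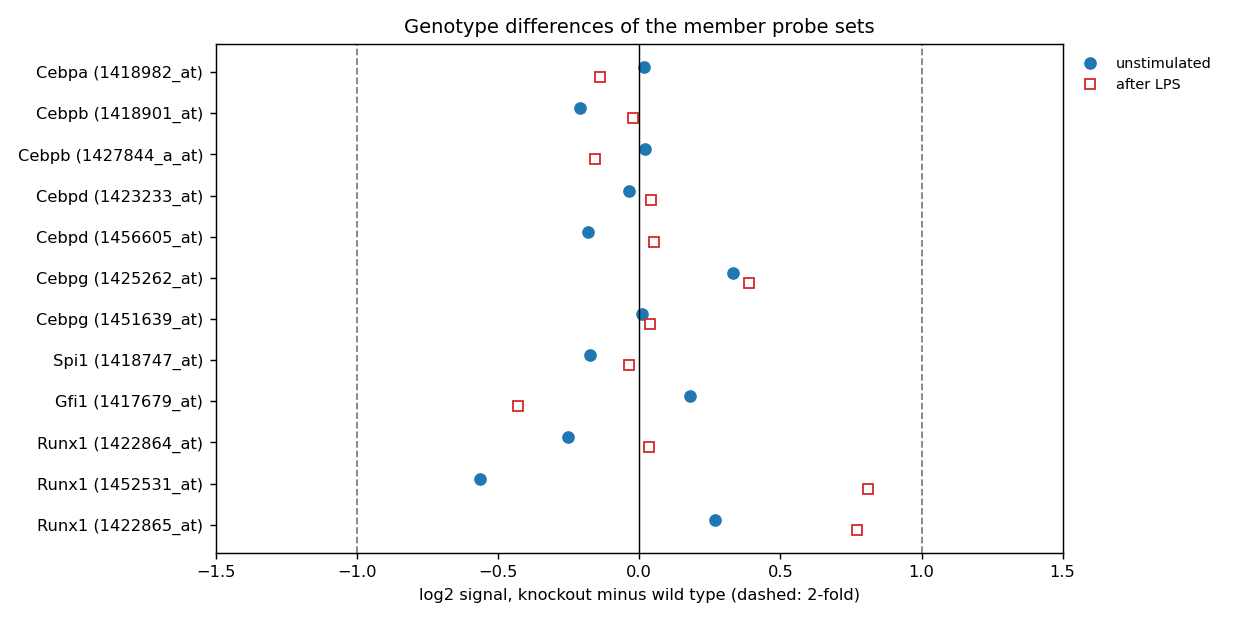
Knockout minus wild-type log2 signal (horizontal axis) of the same 12 probe sets in unstimulated cells (filled circles) and after LPS (open squares), with 2-fold as dashed lines. All points lie within 2-fold, and the outermost are Runx1 1452531_at at -0.56 and 0.81 and Runx1 1422865_at at 0.77.

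The difference between the LPS responses, knockout minus wild type, asks whether the genotypes respond alike. Of 7 genes 0 were called, against 1.66% of the 8156 genes above the floor on all arrays, and values ran from -0.61 for Gfi1 to 0.29 for Runx1. A lower value than that of Gfi1 was found in 4.06% of genes, and Gfi1 stood at -0.61 under quantile normalization, -0.75 with a common median and -0.65 on the poly-A scale. Cebpa had -0.15, Cebpb 0.19, Cebpd 0.08, Cebpg 0.05 and Spi1 0.14. With a common median Cebpd (-0.063), Cebpg (-0.087) and Spi1 (-0.0048) turned below 0, so that 2 members were above 0 and 5 below in place of 5 and 2. In the mean over probe sets Cebpg had -0.22 and Cebpb 0.0055. Among the 12 probe sets, 1 was called, Runx1 1452531_at at 1.37, whose signals were 306, 219, 207 and 384 in unstimulated wild-type, LPS wild-type, unstimulated knockout and LPS knockout cells, against a floor of 111. The brightest Runx1 set gave 0.29 and the third 0.50. With no replicates, none of these differences of responses was tested.

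The genes around these factors were read from lists, to be set against the 17.0% of measured genes called in wild-type cells and 14.6% in knockout cells. Of 14 partners and regulators of C/EBP proteins, 9 were measured in the wild-type LPS comparison and 10 in the knockout one, with 2 higher and 2 lower in each (medians -0.58 and -0.36). Batf, a basic leucine zipper factor induced by cytokines, had 2.26 in wild-type and 2.21 in knockout cells, and Trib3, a pseudokinase of the Tribbles family, had 2.27 and 1.89. Nfil3, a basic leucine zipper repressor, was lower after LPS, at -1.40 and -1.51, as was Atf3, a stress-induced member of the same class, at -1.84 and -1.34. Trib1, the Tribbles protein that directs C/EBP-alpha to degradation, had -0.98 and -0.69 in its brightest set. Its other set had -1.17 and -1.51, past 2-fold in both genotypes. Ddit3, which encodes the dominant-negative partner CHOP, had -0.07 and -0.34 in its brightest set and 0.21 and 0.12 in the other. Trib3 was not called when the floor was raised to the 75th percentile, where it had 0.69 and 0.68.

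Of 15 relatives and cofactors of PU.1, GFI1 and RUNX1, 11 were measured in wild-type and 12 in knockout cells, with 1 higher and 1 lower in each (medians -0.42 and -0.11), which is near the share of all genes. Spic, a PU.1 relative known in red pulp macrophages, was at least 3.41-fold higher in wild-type and at least 2.63-fold higher in knockout cells, from below the floor. Irf8, the interferon regulatory factor that partners PU.1 in the monocyte line, was lower after LPS, at -1.67 and -1.39. Cbfb, the partner that stabilises RUNX1 on DNA, had -0.05 and 0.03, and Kdm1a, a demethylase recruited by GFI1, had 0.63 and 0.48. Neither Spic nor Irf8 was called when the floor was raised to the 75th percentile, where Irf8 had -0.74 and -0.93.

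Of 39 other transcription factors of blood cells, 32 were measured in wild-type and 33 in knockout cells, with 2 higher and 2 lower in wild type and 3 higher and 2 lower in knockout (medians 0.06 and 0.02), also near that share. Klf4, a factor of the monocyte line, was lower in both genotypes, at -4.11 and -4.35. The immediate-early factor Egr1 was lower after LPS in wild-type cells at -2.29, with -0.83 in knockout. Egr1 already differed between the unstimulated arrays, 2.19-fold lower in knockout cells (-1.13). On the LPS arrays it stood at 8.80 in wild type and 9.12 in knockout. Maf, a macrophage factor, had 2.25 and 3.52, and Zeb2, a zinc-finger factor of myeloid cells, 1.52 and 2.28. The Zeb2 sets disagreed, running from -0.44 to 2.59 in wild-type and from -0.68 to 2.44 in knockout cells. In the mean over probe sets neither Zeb2 difference was called (0.87 and 0.88), and in wild type it was also not called on the poly-A scale (0.94) or with the floor at the 75th percentile (0.79). For Maf, that mean did not pass the floor filter. Ets2 had 1.05 in knockout and 0.91 in wild-type cells. Its knockout value was 0.91 under quantile normalization, 0.44 on the poly-A scale and 0.94 in the mean over probe sets, none of them called, while with a common median it was called in wild type too (1.15). Tal1, an erythroid factor, was lower after LPS in knockout cells, with a bound of -1.70. Between the unstimulated arrays it was higher in knockout cells, by 0.84. With the floor at the 75th percentile it was not measured. Tal1 was also called in wild type on the poly-A scale (-1.09) and with the floor at the 50th percentile or none (-1.11), and Egr1 in knockout on the poly-A scale (-1.44).

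Genes known to be driven by these factors were counted in the same way. Of 16 measured granule genes linked to C/EBP factors, 0 were called in either genotype (medians 0.13 and 0.17). Ltf, lactoferrin of secondary granules, had 0.19 and 0.14, and Elane, neutrophil elastase of primary granules, had -0.58 and -0.67. Of 17 receptor and oxidase genes linked to PU.1, 2 were higher and 0 lower in each genotype (medians 0.44 and 0.31), namely Csf1r, the macrophage colony-stimulating factor receptor, with 2.64 and 2.36, and the LPS co-receptor Cd14 with 1.32 and 1.52. Csf3r, the receptor of the neutrophil growth factor G-CSF, had 0.78 and 0.31. On the poly-A scale the granule list had 3 lower in each genotype, the receptor list 1 higher and 2 lower, and Cd14 0.74 and 0.91.

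Most inflammatory genes linked to C/EBP-beta and C/EBP-delta were called higher. Of 17 measured, 13 were higher in wild-type and 14 in knockout cells, and 0 were lower (medians 2.62 and 2.86). Saa3, an acute-phase protein, had 2.37 and 2.04, the prostaglandin E synthase Ptges 3.44 and 2.78, and Csf3, which encodes G-CSF, was higher by bounds of at least 6.71-fold in wild-type and 7.86-fold in knockout cells. Hp, haptoglobin, and Lcn2, lipocalin-2, are acute-phase genes of the same list that stood high without LPS and had 0.29 and 0.15 in wild-type and 0.30 and 0.19 in knockout cells, within or below the range of the members. Cxcl1, a neutrophil chemokine, had 0.26 in wild-type and 2.27 in knockout cells. Of 9 regulators in the NF-kB list, 5 were higher and 0 lower in each genotype (medians 2.99 and 2.84). The 4 C/EBP genes, by comparison, had medians of 0.46 and 0.50 and 0 called.

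**Figure D5:**
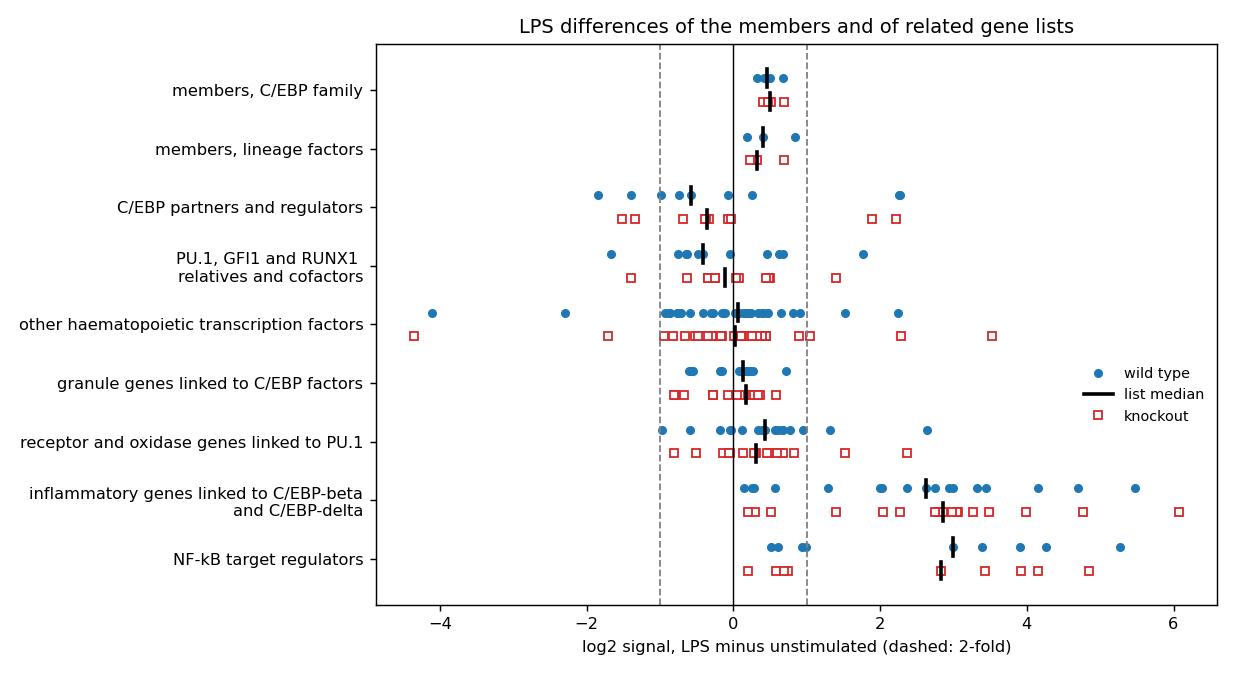
LPS minus unstimulated log2 signal of each measured gene (points), by list, in wild-type (filled circles) and knockout cells (open squares), with the list median as a black bar and 2-fold as dashed lines. The 2 upper lists are the members, whose points all lie between 0.18 and 0.84, while the inflammatory and NF-kB lists have medians from 2.62 to 2.99.

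Markers of cells that a marrow preparation can hold were read beside these values, and their part in the members' values was not tested. Of all measured genes, LPS calls made up 17.0% in wild-type and 14.6% in knockout cells. Genotype calls made up 1.01% unstimulated and 1.24% after LPS. The summed signal of 10 matched granulocyte precursor markers was 74184 in unstimulated wild-type, 57684 in LPS wild-type, 76535 in unstimulated knockout and 54087 in LPS knockout cells, with 0 of 9 measured markers called by LPS in either genotype. Monocyte and macrophage markers had 4 of 9 higher and 2 lower in each genotype after LPS, and their summed signal was 28482 and 51590 in wild type and 28292 and 49540 in knockout. Erythroid markers, 8 of 11 matched, had 1 of 5 lower after LPS in wild type and 4 of 6 lower in knockout. Their sums without and with LPS were 5022 and 2796 in wild type and 7196 and 3365 in knockout. In unstimulated knockout cells 1 of 6 was called higher than in wild type, and after LPS 0 of 3 were called between genotypes. Between genotypes, eosinophil, basophil and mast cell markers had 4 of 5 lower in unstimulated knockout cells and 2 of 5 after LPS, with sums of 4355 and 3758 in wild type and 2088 and 1632 in knockout. No matched marker of these 4 lists was listed at 0 on any array. By the rule set for genes of like pattern, only a member called in its brightest set would be compared, and none qualified.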

How the data were processed

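The log2 signals were deposited by the authors, and the submitters' processing notes name MAS5, with no version. With 2% of probe sets trimmed from either end, the mean of the unlogged signal was 500.003 to 500.004 on the 4 arrays. Values of 0 occur for 298 to 428 probe sets of an array. Of 45101 probe sets, 34958 had 1 gene symbol, 932 several and 9211 were unnamed; probe sets with several or no symbols and controls were left out, which left 18193 genes, each read from its brightest probe set on average. From these log2 values, differences across all genes were computed with Python 3.11.15, numpy and pandas, and the calling functions were tested on simulated data. A gene was measured where at least 1 array of the comparison exceeded the floor; for the difference between responses all 4 had to. The 2-fold rule is a rule of size, and "called" means no more than that.

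All members and their probe sets are named. Of the list genes called in at least 1 comparison only some are named, and not in order of size. List genes that a sentence on the members turns on are named as well. For likeness of pattern, the 3 nearest genes of each called member were to be named. The members and lists were chosen with earlier results of these data known, so a list's direction is not independent evidence. Alternatives were 3 scalings (quantile, common median, poly-A controls), floors at the 50th and 75th percentiles or none, the mean over a gene's probe sets, no sets marked _x_at, _s_at or _a_at, and 1.5-fold calls.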

Additional observations from a re-analysis of the deposited data

Results flagged for a closer look

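Some member probe sets above the floor on all arrays had LPS differences of opposite sign in the 2 genotypes; the differences between responses, knockout minus wild type, were 1.37 for Runx1 1452531_at, 0.50 for Runx1 1422865_at and 0.23 for Cebpd 1456605_at. In 7 sets the genotype difference had opposite signs unstimulated and after LPS. The difference after LPS minus that in unstimulated cells, which equals the difference between responses, was -0.61 for Gfi1, 0.29 for Runx1 1422864_at, -0.18 for Cebpb 1427844_a_at, -0.15 for Cebpa and 0.078 for Cebpd 1423233_at, besides 1.37 for Runx1 1452531_at and 0.23 for Cebpd 1456605_at. With 1 array per group none of these differences was tested.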

How the results depend on the processing

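With 1 array per group no paired analysis was possible because no group has a second sample, and leaving out a replicate could not be run. The count of members called, 0 in all 5 comparisons, stayed at 0 under quantile normalization, poly-A scaling, floors at the 50th and 75th percentiles, no floor, the mean over probe sets and without sets marked _x_at, _s_at or _a_at. Scaling to a common median called 1 member in wild-type cells after LPS (Gfi1), where 17.2% of all measured genes were called. The lower threshold of 1.5-fold called more members by construction. There were 2 after LPS in wild-type cells (Cebpa and Gfi1), 2 in knockout cells (Cebpb and Runx1) and 1 between the responses (Gfi1). In these 3 comparisons 36.8%, 33.0% and 10.5% of all measured genes were called. Between genotypes 0 members were called unstimulated, against 5.83% of all measured genes, and 0 after LPS, against 7.64%. Directions of the members' LPS differences were kept under quantile and median scaling and under each floor; on the poly-A scale 5 of 7 were below 0 in each genotype, and in the mean over probe sets 1 of 7 (Runx1 at -0.28 in wild type, Cebpg at -0.02 in knockout). The balance of LPS calls over all genes also moved: 693 higher and 921 lower in wild-type cells as deposited, 835 and 707 when quantile normalized, 1030 and 620 with a common median, and 337 against 2401 when scaled on poly-A controls. In knockout cells these were 634 and 765, 735 and 633, 737 and 626, and 314 and 2571. The calls of dim member probe sets (Cebpg 1425261_at, Runx1 1452531_at) were lost with the floor at the 75th percentile, where 0 member probe sets were called in any comparison. Other settings added calls. A common median called 3 sets in wild-type cells after LPS, those of Gfi1 (1.08), Cebpb 1427844_a_at (1.18) and Cebpg 1451639_at (1.03). Runx1 1452531_at was called in knockout cells after LPS under quantile normalization (1.09) and in wild-type cells on the poly-A scale (-1.05). With the floor at the 50th percentile Runx1 1427650_a_at was called between genotypes (-1.11 unstimulated and -1.39 after LPS). With no floor 1 set was called in wild-type cells after LPS and 2 in each other comparison. Of all measured genes, 32.7% and 31.6% were then called after LPS in wild-type and knockout cells. Between genotypes 21.3% were called unstimulated and 23.4% after LPS, and between the responses 30.9%. With 1.5-fold calls 5 and 6 sets were called after LPS and 2 in each other comparison. The shares of all genes there were 36.8% and 33.0% after LPS, 5.83% and 7.64% between genotypes, and 10.5% between the responses.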
